A study of Mus musculus with 6 samples.

Results

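Of the 23268 genes in the deposited expression table, 35 were colon epithelial genes looked up by symbol, and all 35 were present. They fell into 15 pan-epithelial genes (adhesion, keratin and junction genes with the transcription factors of intestinal epithelium), 7 goblet genes, 9 absorptive genes and 4 genes that inflamed epithelium is known to induce. The libraries were made from group 2 innate lymphoid cells (ILC2s), which are not epithelial. In the DSS group, 6- to 8-week-old C57BL/6 mice received 3% dextran sulfate sodium, a chemical that injures the colonic epithelium, for 6 days. The control group was of the same strain and age and received water (0% DSS) for those 6 days. Each group had 3 libraries, and colonic ILC2s were sorted for each. The labels do not state the sorting gate, nor whether a library came from 1 mouse or several. The p-values therefore refer to the variation among these libraries, part of which may be technical.

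The colon is lined by a sheet of simple epithelium in which absorptive colonocytes take up water and ions and goblet cells secrete mucus. Its cells are held together by adhesion molecules and tight junctions and carry a scaffold of simple-epithelium keratins. Resident lymphocytes, ILC2s among them, lie beneath and between these cells, and ILC2s are known to act on goblet cells through type 2 cytokines. When the barrier is injured, epithelial cells induce antimicrobial lectins and acute-phase proteins.

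ILC2 genes were far more abundant than epithelial genes in all 6 libraries. The 18 ILC2 genes listed for comparison summed to 5112 to 7932 FPKM in DSS libraries and 6983 to 7963 FPKM in control libraries, mostly from Id2 and Areg. Their difference ran opposite to that of the epithelial genes. Of the 18, 16 had a negative log2 difference, with a median of −0.61, and 10 had all DSS values below all control values, as did 5.29% of all genes above 0. Of the 17 tested, 1 passed, downward (Il5), and Gata3, the master regulator of ILC2s, had 287, 652 and 674 FPKM in DSS replicates 1, 2 and 3, against 885, 841 and 852 FPKM in control replicates 1, 2 and 3 (limma adjusted p = 0.497). The 35 epithelial genes together summed to 94.8, 95.1 and 87.8 FPKM in DSS replicates 1, 2 and 3, and to 30.1, 23.3 and 58.3 FPKM in control replicates 1, 2 and 3. FPKM counts fragments per kilobase of gene and per library size, so that levels can be compared between genes. The libraries held 14993465, 19202418 and 10099848 fragments in DSS replicates 1, 2 and 3, and 23380504, 17733926 and 12826645 in control replicates 1, 2 and 3. At these depths 1 fragment in a gene of 1000 bases was worth 0.0428 to 0.0990 FPKM, so most levels below rest on few fragments, and fragments made by PCR are not independent molecules.

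By their median gene, DSS replicate 3 and control replicate 3 stood apart from the other 4 libraries. The median gene of the whole table had 2.61 FPKM in DSS replicate 3, against 0.777 and 0.687 FPKM in DSS replicates 1 and 2. It had 1.64 FPKM in control replicate 3, against 0.398 and 0.513 FPKM in control replicates 1 and 2. Olfactory receptor genes, which serve the sense of smell, averaged 0.962 FPKM in DSS replicate 3 and 0.583 FPKM in control replicate 3. In the other libraries they averaged 0.135 and 0.182 FPKM (DSS) and 0.0342 and 0.0833 FPKM (control). An epithelial gene at 1 to 2 FPKM was therefore below the typical gene of DSS replicate 3 and above the typical gene of control replicate 1. The other 4 libraries were not alike either. DSS replicate 1 had 287 FPKM of Gata3, against 652 to 885 FPKM elsewhere. Without it 144 genes of the whole table passed upward and 291 downward, against 9 and 18 with all libraries.

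**Figure D1:**
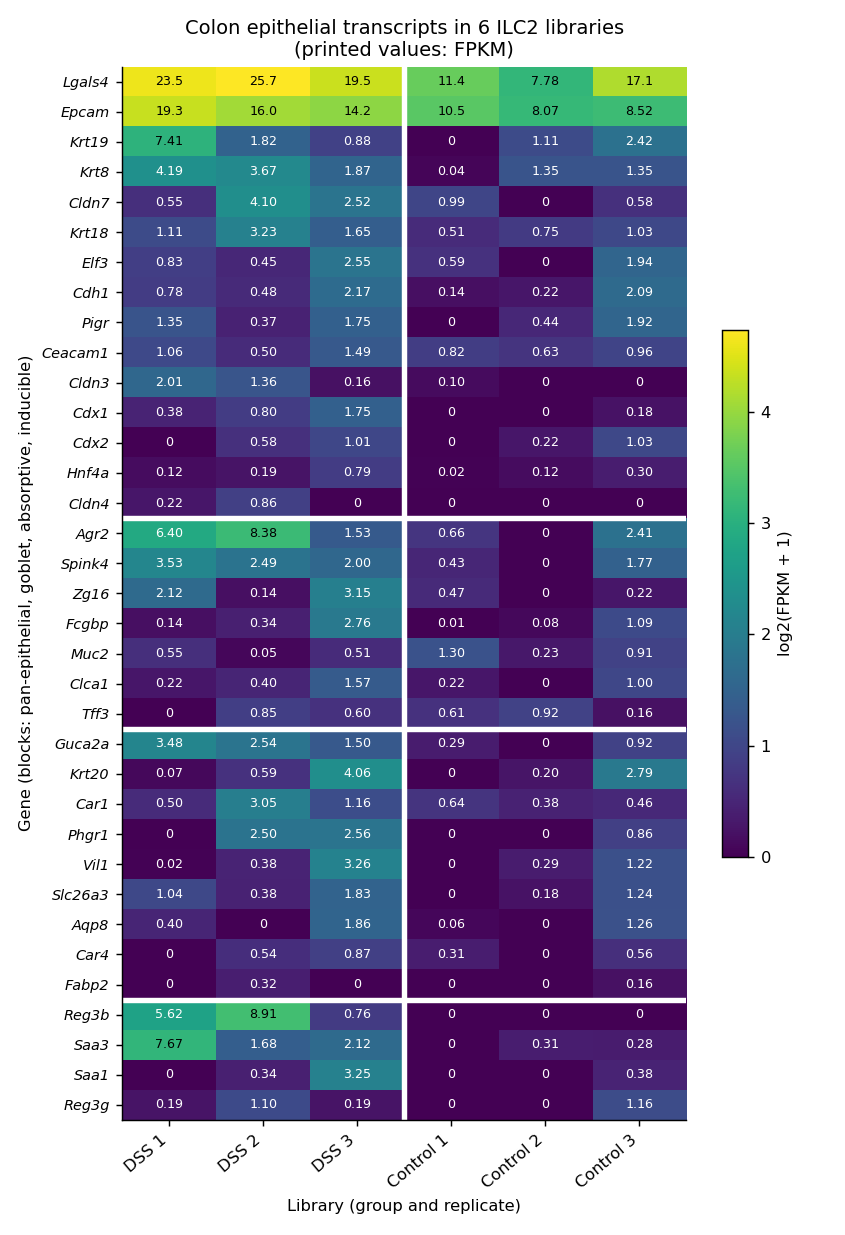
Level of each of the 35 genes (rows, in blocks by class and ordered by mean level) in each of the 6 libraries (columns, DSS left). Colour gives log2(FPKM + 1) and the printed numbers give FPKM. Lgals4 and Epcam hold the 2 brightest rows in all 6 libraries, and 0 is frequent in control replicates 1 and 2.

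Epcam and Lgals4 were the 2 highest members in every library, and both were higher in each DSS library than in any control library. Epcam, a homophilic adhesion molecule of epithelial cells, had 19.3, 16.0 and 14.2 FPKM in DSS replicates 1, 2 and 3 (590, 626 and 293 fragments). In control replicates 1, 2 and 3 it had 10.5, 8.07 and 8.52 FPKM (500, 292 and 223 fragments). The lowest DSS value lay above the highest control value, and the mean was 16.5 ± 2.57 FPKM in DSS and 9.03 ± 1.28 FPKM in control libraries (SD, n = 3 each), a ratio of 1.83. Lgals4, which encodes galectin-4, a sugar-binding lectin of gut epithelium, had 23.5, 25.7 and 19.5 FPKM in DSS replicates 1, 2 and 3. In control replicates 1, 2 and 3 it had 11.4, 7.78 and 17.1 FPKM. The groups did not overlap, though control replicate 3 came close to DSS replicate 3, and the ratio of means was 1.89. On the log2(FPKM + 1) scale, which understates changes of low genes, the difference was 0.80 ± 0.22 (SE) for Epcam and 0.92 ± 0.28 (SE) for Lgals4. Neither passed in the fit over all genes (limma with Benjamini-Hochberg adjustment, adjusted p = 0.217 and 0.295). Epcam was above 84.2% to 89.1% of all genes in the DSS libraries and above 77.8% to 81.0% in the control libraries. For Lgals4 these shares were 88.2% to 90.8% in DSS and 77.5% to 86.6% in control libraries.

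Epcam lies on chromosome 17 (mm10, 87635979 to 87651129, plus strand) and Lgals4 on chromosome 7 (28833854 to 28841708, plus strand). Neither shares an exon base with another gene in GENCODE M21, nor a stretch of 50 bases with another gene's transcripts. Their promoters are shown because these were the best measured members, and that of Saa3 because its level differed most clearly among the low members on the log2 scale after Reg3b. Each is the 250 bases before the start annotated by RefSeq (GRCm38.p6, the build of mm10), written 5′ to 3′ on the strand of the gene. Capitals mark the motif of CDX factors searched here, TTTATNG on either strand. The regions are chr17:87635729-87635978 for Epcam, chr7:28833544-28833793 for Lgals4 and chr7:46715677-46715926 (minus strand) for Saa3.
Epcam: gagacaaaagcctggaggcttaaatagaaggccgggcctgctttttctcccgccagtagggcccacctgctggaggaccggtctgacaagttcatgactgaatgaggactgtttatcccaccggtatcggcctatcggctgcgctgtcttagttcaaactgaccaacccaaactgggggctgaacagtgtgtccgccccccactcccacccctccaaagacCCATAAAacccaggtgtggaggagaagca
Lgals4: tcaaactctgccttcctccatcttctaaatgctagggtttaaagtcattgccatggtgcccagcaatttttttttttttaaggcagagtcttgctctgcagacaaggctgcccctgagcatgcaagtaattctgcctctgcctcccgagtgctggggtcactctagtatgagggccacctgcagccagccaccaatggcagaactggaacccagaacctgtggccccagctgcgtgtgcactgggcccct
Saa3: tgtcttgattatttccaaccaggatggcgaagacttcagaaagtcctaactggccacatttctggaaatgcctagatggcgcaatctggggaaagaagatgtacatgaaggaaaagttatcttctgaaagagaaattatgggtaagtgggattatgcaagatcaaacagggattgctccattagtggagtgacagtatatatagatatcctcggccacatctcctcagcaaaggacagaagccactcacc

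Of the 35 members, 27 had a promoter in the RefSeq table. The CDX letters stood in 5 of these 27 (18.5%), namely Fabp2, Reg3g, Krt20, Agr2 and Epcam, against 10.2% of 27025 promoters of the same length. The STAT letters TTCNNNGAA stood in 2 of 27 (7.41%), Phgr1 and Reg3b, against 7.18% of all promoters. The NF-kB letters, GGGA and CC with any 4 bases between them, stood in 8 of 27 (29.6%), against 17.3% of all promoters, and the HNF4 letters CAAAGTCC in 0 of 27, against 1.22%. Each motif was searched on both strands, and a match describes letters and not a bound site.

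The other 13 pan-epithelial members were low, and their sum was higher in each DSS library than in each control library. Together they summed to 20.0, 18.4 and 18.6 FPKM in DSS replicates 1, 2 and 3, and to 3.22, 4.84 and 13.8 FPKM in control replicates 1, 2 and 3. Control replicate 3 lay closer to the DSS libraries than to the other controls. All 15 pan-epithelial members, Epcam and Lgals4 included, had a positive difference between group means on the log2 scale, with a median of 0.72. Over all 22701 genes above 0 in the table, the median was 0.12 and 65.6% of genes were positive.

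Among the keratins of simple epithelium, Krt8 had 4.19, 3.67 and 1.87 FPKM in DSS replicates 1, 2 and 3, and 0.0437, 1.35 and 1.35 FPKM in control replicates 1, 2 and 3. Its groups did not overlap (log2 difference 1.20 ± 0.46 SE, limma adjusted p = 0.439), and 26.9% of its 50-base stretches also occur in other transcripts, foremost its pseudogene Krt8-ps. Its partner Krt18 had 1.11, 3.23 and 1.65 FPKM in DSS libraries, against 0.506, 0.746 and 1.03 FPKM in control libraries. These groups did not overlap either, with DSS replicate 1 just above control replicate 3. Krt19 reached 7.41 FPKM in DSS replicate 1 but had 1.82 and 0.880 FPKM in DSS replicates 2 and 3, against 0, 1.11 and 2.42 FPKM in control replicates 1, 2 and 3, so its groups overlapped.

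The tight junction claudins differed from each other. Cldn3 had 2.01, 1.36 and 0.157 FPKM in DSS replicates 1, 2 and 3 (38, 33 and 2 fragments), against 0.102, 0 and 0 FPKM in control libraries (3, 0 and 0 fragments). Cldn4 had 0.220, 0.860 and 0 FPKM in DSS replicates 1, 2 and 3 and was listed at 0 in all 3 control libraries. Its groups overlapped, and DSS replicate 2 held most of its fragments. The fragments recovered for it in DSS replicates 1, 2 and 3 (3, 15 and 0) are minimums. Cldn7 had 0.550, 4.10 and 2.52 FPKM in DSS replicates 1, 2 and 3, and 0.993, 0 and 0.584 FPKM in control replicates 1, 2 and 3, which overlap. E-cadherin (Cdh1) overlapped too, and it was highest in both libraries numbered 3, with 2.17 FPKM in DSS and 2.09 FPKM in control, against 0.145 to 0.783 FPKM in the other 4.

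Pigr, the receptor that carries IgA across the epithelium, had 1.35, 0.365 and 1.75 FPKM in DSS replicates 1, 2 and 3, and 0, 0.440 and 1.92 FPKM in control replicates 1, 2 and 3. Ceacam1, an adhesion receptor that leukocytes also carry, had 1.06, 0.499 and 1.49 FPKM in DSS libraries and 0.819, 0.632 and 0.960 FPKM in control libraries, an overlap with almost level groups. Of its 50-base stretches, 30.4% also occur in other transcripts, foremost Ceacam2. Among transcription factors of intestinal epithelium, Cdx1 had 0.381, 0.803 and 1.75 FPKM in DSS libraries (10, 27 and 31 fragments), and 0, 0 and 0.178 FPKM in control libraries (0, 0 and 4 fragments). These groups did not overlap. Its relative Cdx2 (0, 0.576 and 1.01 FPKM in DSS, against 0, 0.224 and 1.03 FPKM in control libraries) overlapped. The nuclear receptor gene Hnf4a (0.122, 0.191 and 0.794 FPKM in DSS, against 0.0196, 0.116 and 0.304 FPKM in control libraries) and the ETS factor gene Elf3 (0.828, 0.447 and 2.55 FPKM in DSS, against 0.592, 0 and 1.94 FPKM in control libraries) overlapped as well. All 3 of these genes peaked in the libraries numbered 3, where the median gene was also highest.

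**Figure D2:**
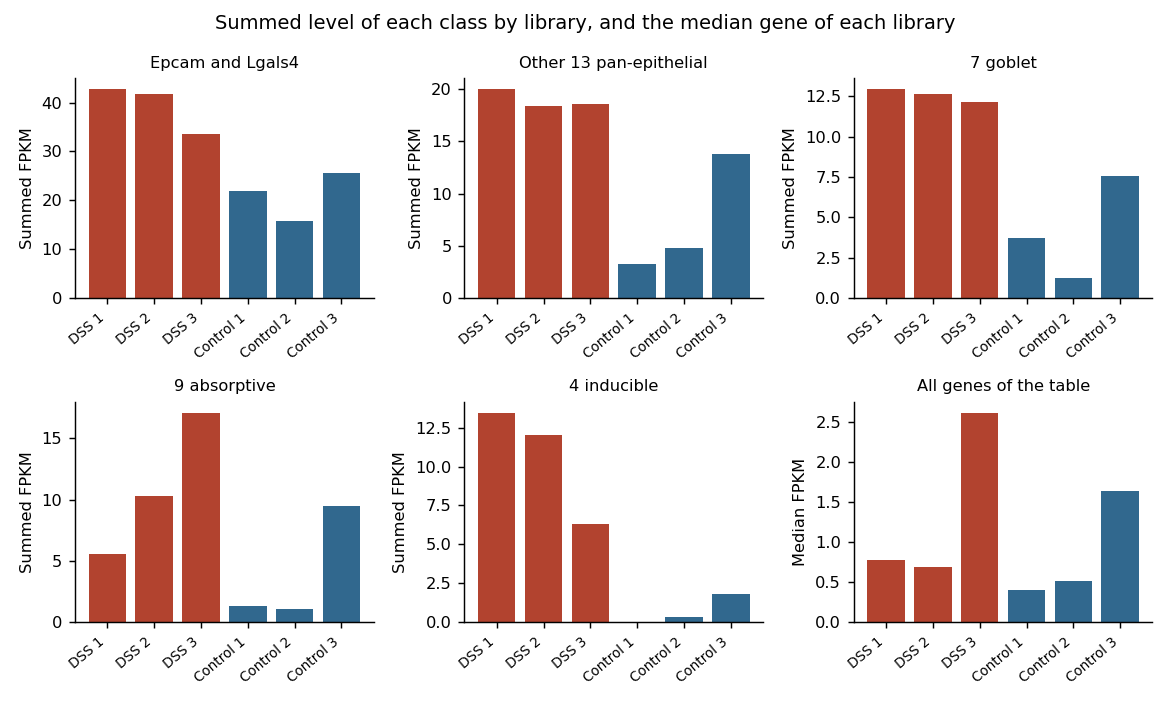
Summed FPKM of each class (vertical axis, starting at 0) in each library (horizontal axis, DSS in red left of control in blue), with the median FPKM of all genes of the table in the last panel. The absorptive sum and the median gene are both highest in DSS replicate 3, while the inducible sum is lowest among DSS libraries in DSS replicate 3.

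Of the 7 goblet cell genes, 5 had a positive log2 difference and 2 a negative one, while 65.6% of all genes above 0 were positive. The 7 genes summed to 12.96, 12.7 and 12.1 FPKM in DSS replicates 1, 2 and 3, and to 3.71, 1.22 and 7.55 FPKM in control replicates 1, 2 and 3. Their median log2 difference was 0.44, and it was −0.045 without DSS replicate 3. The largest part of the sum in DSS replicates 1 and 2 came from Agr2, which encodes a disulfide isomerase needed for making mucin. Agr2 had 6.40, 8.38 and 1.53 FPKM in DSS replicates 1, 2 and 3 (87, 146 and 14 fragments), and 0.660, 0 and 2.41 FPKM in control replicates 1, 2 and 3 (14, 0 and 28 fragments). The groups overlapped through both libraries numbered 3 (log2 difference 1.65 ± 0.59 SE, limma adjusted p = 0.386).

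Spink4, of the Kazal family of protease inhibitors, was the 1 goblet member whose groups did not overlap. It had 3.53, 2.49 and 2.00 FPKM in DSS replicates 1, 2 and 3, and 0.431, 0 and 1.77 FPKM in control replicates 1, 2 and 3, from 4 to 21 fragments where it was above 0. Zg16, a mucus lectin gene, had 2.12, 0.144 and 3.15 FPKM in DSS libraries and 0.473, 0 and 0.216 FPKM in control libraries, so DSS replicate 2 lay among the controls. The mucus protein gene Fcgbp (0.143, 0.335 and 2.76 FPKM in DSS, against 0.0108, 0.0782 and 1.09 FPKM in control libraries) and the mucus protease gene Clca1 (0.219, 0.399 and 1.57 FPKM in DSS, against 0.222, 0 and 1.00 FPKM in control libraries) were both highest in the libraries numbered 3.

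Muc2, the gene of the gel-forming mucin that builds colonic mucus, ran the other way. It had 0.547, 0.0534 and 0.508 FPKM in DSS replicates 1, 2 and 3 (24, 3 and 15 fragments), and 1.30, 0.231 and 0.906 FPKM in control replicates 1, 2 and 3 (89, 12 and 34 fragments). The trefoil peptide gene Tff3 had 0, 0.845 and 0.603 FPKM in DSS libraries and 0.607, 0.915 and 0.158 FPKM in control libraries, from at most 8 fragments. Muc2 and Tff3 were the 2 members of the 35 with a negative log2 difference (−0.38 and −0.09), and both overlapped between the groups.

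Of the 9 absorptive genes, 5 had their 2 highest values in DSS replicate 3 and control replicate 3, as did 42.9% of all genes above 0. The 9 genes summed to 5.52, 10.3 and 17.1 FPKM in DSS replicates 1, 2 and 3, and to 1.30, 1.05 and 9.47 FPKM in control replicates 1, 2 and 3. Control replicate 3 thus exceeded DSS replicate 1, and the summed levels overlapped. Krt20, the keratin of differentiated intestinal cells, had 0.0692, 0.595 and 4.06 FPKM in DSS replicates 1, 2 and 3, and 0, 0.205 and 2.79 FPKM in control replicates 1, 2 and 3. Vil1, which encodes the microvillus protein villin, had 0.0213, 0.383 and 3.26 FPKM in DSS libraries and 0, 0.289 and 1.22 FPKM in control libraries. The chloride and bicarbonate exchanger gene Slc26a3, the water channel gene Aqp8 and the membrane-bound carbonic anhydrase gene Car4 had the same 2 highest libraries, DSS replicate 3 (1.83, 1.86 and 0.867 FPKM) and control replicate 3 (1.24, 1.26 and 0.559 FPKM).

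Guca2a was the absorptive member whose groups did not overlap. It encodes guanylin, a peptide that drives ion and water secretion, and had 3.48, 2.54 and 1.50 FPKM in DSS replicates 1, 2 and 3 (31, 29 and 9 fragments). In control replicates 1, 2 and 3 it had 0.288, 0 and 0.919 FPKM (4, 0 and 7 fragments), for a log2 difference of 1.34 ± 0.48 SE (limma adjusted p = 0.406). The cytosolic carbonic anhydrase gene Car1 had 0.503, 3.05 and 1.16 FPKM in DSS libraries and 0.645, 0.378 and 0.457 FPKM in control libraries, with DSS replicate 1 inside the control range. Phgr1 was listed at 0 in DSS replicate 1 and in control replicates 1 and 2, and had 2.50 and 2.56 FPKM in DSS replicates 2 and 3 and 0.863 FPKM in control replicate 3. The intestinal fatty acid binding protein gene Fabp2 was above 0 only in DSS replicate 2 (0.324 FPKM, 6 fragments) and control replicate 3 (0.162 FPKM, 2 fragments).

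Reg3b and Saa3, which inflamed epithelium is known to induce, had the largest log2 differences of the 35. The 4 genes summed to 13.5, 12.0 and 6.32 FPKM in DSS replicates 1, 2 and 3, and to 0, 0.308 and 1.82 FPKM in control replicates 1, 2 and 3. Their median log2 difference was 1.25. Reg3b, which encodes an antimicrobial C-type lectin, had 5.62, 8.91 and 0.759 FPKM in DSS replicates 1, 2 and 3 (66, 134 and 6 fragments). It was listed at 0 in all 3 control libraries, so every DSS library lay above every control library. Set against 3 fragments over the control group, Reg3b was at least 83.6-fold higher in the 3 DSS libraries pooled, a bound that covers counting error only. It was 51.6-fold without DSS replicate 2, 85.9-fold without DSS replicate 1 and 105-fold without DSS replicate 3. DSS replicate 3 gave only 6 of the 206 pooled fragments, so the bound does not hold for that library alone. Its 0.759 FPKM stood against 0.299 FPKM, the level of 3 fragments in control replicate 3. Its log2 difference was 2.28 ± 0.64 SE (limma adjusted p = 0.226). Without DSS replicate 3 the difference was 3.02 and passed (limma adjusted p = 0.0341), higher in 2 of 2 DSS libraries. That library held the lowest DSS value of Reg3b. Being 0 in every control library, Reg3b also reached the mean of 1 FPKM needed for the test only through DSS libraries. A gene that does so had to differ, so this pass is not separate evidence. Without both libraries numbered 3 it did not pass (limma adjusted p = 0.0506).

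Reg3b lies on chromosome 6 (mm10, 78370657 to 78373466, plus strand) and shares no 50-base stretch with another gene's transcripts, its relative Reg3g included. The STAT letters near its start, shown because Reg3b had the largest log2 difference of the 35, are in capitals below with 10 bases on each side (GRCm38.p6, chr6:78370746-78370774, plus strand, 121 to 129 bases before the RefSeq start). The gene start in GENCODE M21 lies upstream of them.
Reg3b: agcctgttctTTCTTGGAAactctttgag

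Saa3, an acute-phase gene that macrophages are also known to express, had 7.67, 1.68 and 2.12 FPKM in DSS replicates 1, 2 and 3 (253, 71 and 47 fragments). In control replicates 1, 2 and 3 it had 0, 0.308 and 0.284 FPKM (0, 12 and 8 fragments). Every DSS library was above every control library (log2 difference 1.81 ± 0.54 SE, limma adjusted p = 0.278). Reg3g, the relative of Reg3b, had 0.192, 1.10 and 0.190 FPKM in DSS libraries and 0, 0 and 1.16 FPKM in control libraries. Its highest value was thus a control library, unlike that of Reg3b. Saa1 had 0, 0.342 and 3.25 FPKM in DSS libraries and 0, 0 and 0.384 FPKM in control libraries, and 31.5% of its 50-base stretches also occur in other transcripts, foremost Saa2.

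**Figure D3:**
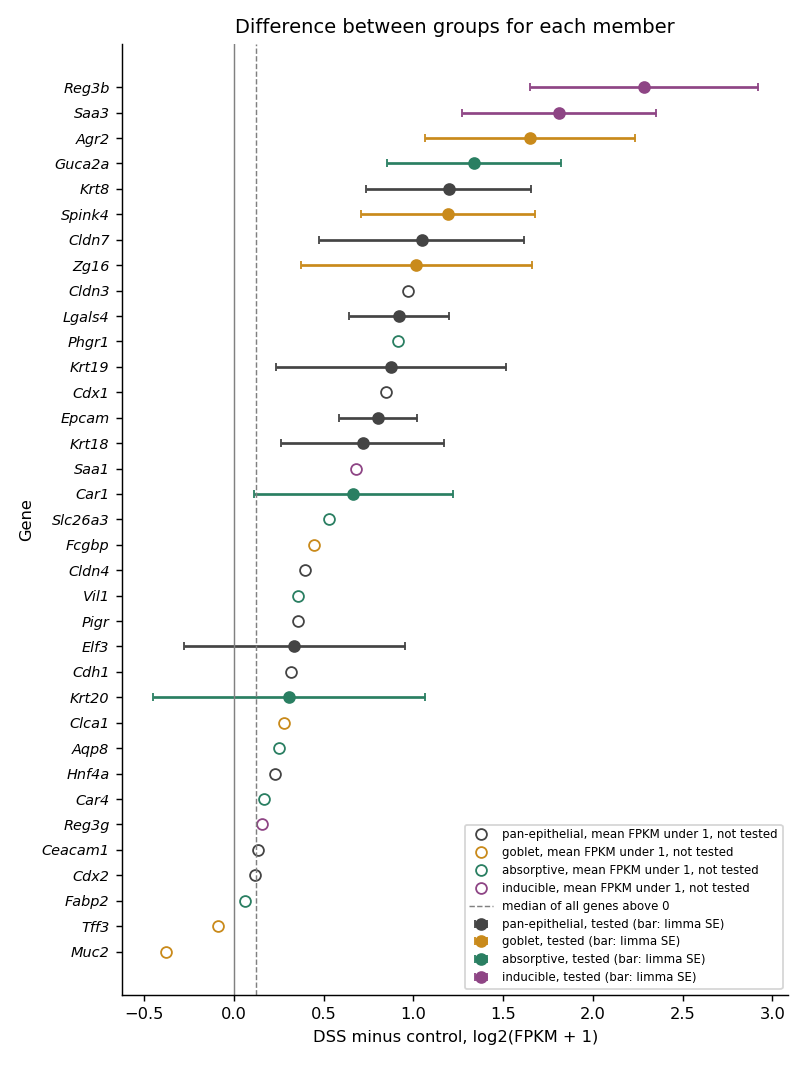
DSS minus control difference of each gene on the log2(FPKM + 1) scale (horizontal axis), ordered by size, with the limma SE for the 15 genes with a mean of at least 1 FPKM and open points for the 20 genes below it. Reg3b and Saa3 lie at the top with 2.28 and 1.81, Muc2 at the bottom with −0.38, and the dashed line marks the median of all genes above 0, 0.12.

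Across the 35 genes, 33 had a positive log2 difference and 10 had every DSS library above every control library (28.6%). Among all 22701 genes above 0, 4.84% had such a separation upward. The 10 were Epcam, Lgals4, Krt8, Krt18, Cldn3, Cdx1, Spink4, Guca2a, Reg3b and Saa3. Several were separated by a narrow margin, within counting error. The lowest DSS and highest control libraries had 2 and 3 fragments for Cldn3, 8 and 9 for Spink4, 9 and 7 for Guca2a, and 10 and 4 for Cdx1. They had 1.11 and 1.03 FPKM for Krt18, 1.87 and 1.35 FPKM for Krt8, and 19.5 and 17.1 FPKM for Lgals4. No member had all its DSS values below all its control values, against 5.29% of all genes above 0. The median log2 difference was 0.53 over the 35 members and 0.12 over all genes above 0. Without DSS replicate 3, 23 of 35 members and 38.5% of genes were positive. Without control replicate 3, 16 of 35 members were entirely above the controls, against 22.0% of genes. Without both libraries numbered 3, 18 of 35 members had DSS libraries entirely above control libraries (51.4%), against 26.0% of genes above 0 in those 4 libraries.

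By the test over all genes, 0 of the 15 members with a mean of at least 1 FPKM passed (limma adjusted p = 0.217 to 0.943). Of 12187 genes tested, 27 passed (0.222%), 9 higher (0.0738%) and 18 lower (0.148%) in DSS. With the replicate number as a block, 12 were higher and 10 lower, and again 0 members passed. At an unadjusted p under 0.05, 8 of the 15 members and 8.99% of all tested genes were reached, and with limma voom on the recovered fragments 6 of 15 members and 9.73% of genes, with 0 members passing after adjustment. The other 20 members had a mean under 1 FPKM and were not tested. A member that reached this mean only through its DSS libraries had to differ, so the count among the 15 is not evidence about the 35.

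The members differed in the libraries that held their highest values. For 13 of 35 (37.1%) the 2 highest values were in DSS replicate 3 and control replicate 3, and the same held for 42.9% of all genes above 0. This pattern was thus no more frequent among the members than among all genes. These 13 were Cdh1, Pigr, Cdx2, Hnf4a, Elf3, Clca1, Fcgbp, Krt20, Car4, Vil1, Slc26a3, Aqp8 and Saa1. For 9 of 35 (25.7%) the 2 highest values were in DSS replicates 1 and 2, against 3.74% of all genes above 0. These 9 were Epcam, Lgals4, Krt8, Cldn3, Cldn4, Agr2, Spink4, Guca2a and Reg3b. The first pair of libraries was chosen because the median gene was high in them, and the second after the values were seen. DSS replicates 1 and 3 held the 2 highest values of 3 of 35 members (8.57%), against 8.62% of all genes above 0. DSS replicates 2 and 3 held those of 5 of 35 (14.3%), against 9.85%.

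**Figure D4:**
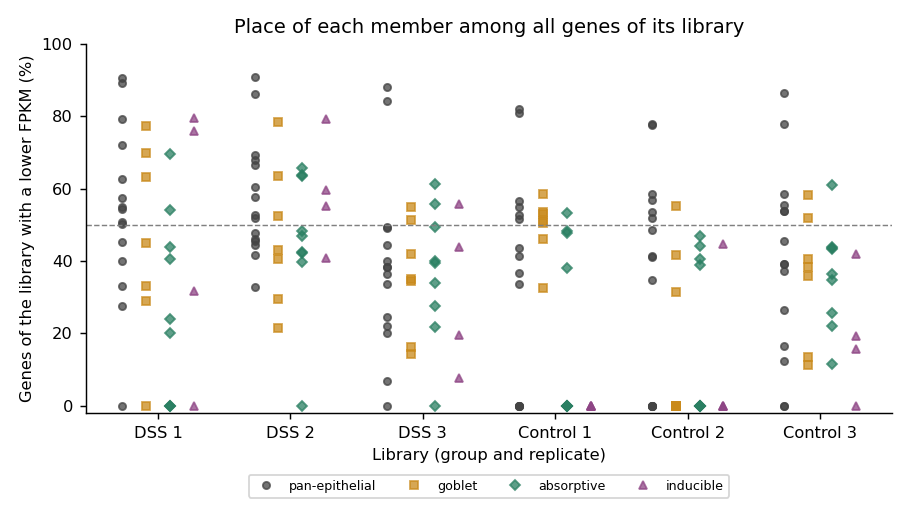
Share of the library's genes with a lower FPKM (vertical axis, percent) for each of the 35 members in each library (horizontal axis, DSS left), with the dashed line at 50%. Epcam and Lgals4 form the 2 highest points of each library. In DSS replicate 3, 7 of 35 members lie above the library's median gene, against 17 and 18 in DSS replicates 1 and 2.

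Set against the other genes of their own library, the members were not high in DSS replicate 3. In DSS replicates 1, 2 and 3, 17, 18 and 7 of the 35 were above the library's median gene. In control replicates 1, 2 and 3 these were 12, 7 and 9. In DSS replicate 3 the 7 included Epcam and Lgals4 and none of the other 13 pan-epithelial members.

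Sums of further colon epithelial genes overlapped between the groups. A few abundant genes made up much of each sum, so the sums say little about the other genes. Most of the genes had a positive difference, as did 65.6% of all genes above 0 (median 0.12). No test compared these lists with the 35. A list of 31 others summed to 72.7, 69.9 and 123 FPKM in DSS replicates 1, 2 and 3, and to 83.7, 90.4 and 119 FPKM in control replicates 1, 2 and 3, which overlap. Of its 16 tested genes 0 passed, 25 of 31 had a positive difference, and the median was 0.27. Its highest gene, the transcription factor gene Klf5, was lower in every DSS library, with 19.8, 24.5 and 24.9 FPKM in DSS and 40.1, 38.6 and 35.7 FPKM in control libraries (log2 difference −0.71 ± 0.20 SE, limma adjusted p = 0.223). Muc3, a membrane mucin gene, had 8.03, 3.40 and 11.3 FPKM in DSS libraries and 16.5, 13.8 and 10.7 FPKM in control libraries. Further goblet genes summed to 34.8 to 74.4 FPKM in DSS and 47.1 to 62.7 FPKM in control libraries. The most abundant, Galnt12, was lower in every DSS library (19.7, 34.9 and 35.3 FPKM) than in any control library (37.9, 37.2 and 38.7 FPKM). Of the 15 genes, 11 had a positive difference (median 0.43, against 0.44 for the 7 goblet members). Stem and crypt genes summed to 13.5 to 29.4 FPKM in DSS and 15.02 to 24.4 FPKM in control libraries, with 10 of 12 positive (median 0.31). Tuft cell genes summed to 15.9 to 29.6 FPKM in DSS and 18.8 to 24.1 FPKM in control libraries, with 8 of 11 positive (median 0.09). Hpgds was the most abundant of them, at 6.65 to 12.4 FPKM, and whether the ILC2s expressed it was not tested. None of the 9, 5 and 4 tested genes of these 3 lists passed.

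Genes of epithelia that the colon does not hold gave a level to set beside these. The 15 genes of skin, lung, liver, pancreas and kidney summed to 18.6, 11.6 and 36.5 FPKM in DSS replicates 1, 2 and 3, and to 10.8, 8.68 and 15.5 FPKM in control replicates 1, 2 and 3. Of them, 14 had a positive difference, with a median of 0.37, against 65.6% of all genes above 0 (median 0.12). For 9 of the 15 the 2 highest values were in the libraries numbered 3, against 42.9% of all genes above 0. None had them in DSS replicates 1 and 2, where the share of all genes was 3.74%, so 15 genes are too few for a contrast. Krt14 alone, 1 of the 15, had every DSS library above every control library, against 4.84% of all genes above 0. It had 1.73 to 3.38 FPKM in DSS and 0 to 0.459 FPKM in control libraries (log2 difference 1.46, limma adjusted p = 0.348). Small-intestine absorptive genes summed to 6.08, 2.48 and 31.6 FPKM in DSS libraries and to 1.18, 1.69 and 12.1 FPKM in control libraries, again highest in both libraries numbered 3.

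Among markers of other cells, neutrophil genes passed the test and those of the other lists did not. The 14 neutrophil genes summed to 97.96, 70.7 and 122 FPKM in DSS replicates 1, 2 and 3, and to 6.52, 3.75 and 12.2 FPKM in control replicates 1, 2 and 3, with 3 of 8 tested genes passing upward. Macrophage and monocyte genes summed to 38.7 to 65.6 FPKM in DSS and 34.2 to 42.9 FPKM in control libraries. Macrophage genes had 0 of 6 tested passing. Of the 14, 2 had every DSS library above every control library, and 0 the reverse, against 4.84% and 5.29% of all genes above 0. Cd14 was separated in this way, with 6.06, 15.2 and 15.99 FPKM in DSS libraries. In control libraries it had 2.89, 3.33 and 1.57 FPKM (log2 difference 1.83, limma adjusted p = 0.118). The most abundant gene of the list, Ccr2, overlapped and had a negative log2 difference (−0.30, limma adjusted p = 0.774). T cell genes summed to 80.0, 42.9 and 59.8 FPKM in DSS libraries and to 57.4, 50.7 and 66.1 FPKM in control libraries, with 0 of 7 tested passing. Lck (16.4 to 31.1 FPKM) and Cd3g (17.0 to 37.6 FPKM) were the most abundant of them. B and plasma cell genes summed to 190, 161 and 43.5 FPKM in DSS libraries and to 23.3, 26.2 and 35.5 FPKM in control libraries, with 0 of 3 tested passing. Most of that sum in DSS replicates 1 and 2 was the plasma cell gene Jchain, at 164, 146 and 27.7 FPKM in DSS libraries and 12.5, 8.98 and 19.2 FPKM in control libraries (limma adjusted p = 0.136). The B cell gene Cd79a did not overlap either, with 2.06, 2.86 and 1.70 FPKM in DSS libraries. In control libraries it had 0.763, 1.01 and 1.18 FPKM (limma adjusted p = 0.675). The B cell genes Cd79b and Ms4a1 overlapped. Fibroblast and muscle genes (19.5 to 38.0 FPKM in DSS and 16.3 to 33.2 FPKM in control libraries) and endothelial genes (17.6 to 39.7 and 25.4 to 38.1 FPKM) overlapped in sum. In bulk samples more cells of a type and more of its RNA per cell cannot be told apart. Nor can expression of a listed gene by the sorted ILC2s themselves. The part of these cells, and of the libraries numbered 3, in the epithelial values was not tested.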

How the data were processed

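Total RNA of sorted ILC2s was made into full-length cDNA with a SMART-Seq HT kit and into paired-end libraries with a Nextera XT kit, per the labels' protocols. Per the submitters' processing notes, the tools included cutadapt 1.9 and HISAT2 2.2.1, and the build was mm10. How fragments were counted, and on which annotation, is not given in the sources used here. FPKM values were deposited by the authors in 1 table of 23268 genes by symbol, in 6 columns matched to samples by name. Within a gene these are whole multiples of a common step (tolerance 0.001), and depths at which gene lengths came out whole (tolerance 0.01 bases) gave the fragments, which are the smallest that meet both and can be a fraction of the true number.

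The test was limma 3.58.1 (R 4.3.3) on log2(FPKM + 1), with a trend and two-sided, for the 12187 genes whose mean FPKM was 1 or more, adjusted by Benjamini-Hochberg with a threshold of 0.05 and checked on simulated data. The members, lists and rule for named genes (all members, and up to 4 of the highest genes of each other list) were chosen with earlier results of these data known. Only some genes of the other lists are named. Deviations from group means of same-numbered libraries correlated at 0.189, 0.262 and 0.545, each over 0.1, which by the rule used makes same-numbered libraries pairs, on the data and not the labels. The reported tests have no block, and the block is an alternative. DSS replicate 2 correlated more with control replicate 1 (0.345), so the numbers do not settle which libraries belong together. Coordinates are 1-based from GENCODE M21 (GRCm38). Of the members, Krt8, Cldn3, Elf3 and Vil1 share 40 to 162 exon bases with genes on the opposite strand, which these libraries cannot separate. Alternatives were other pseudocounts, filters and scalings, the replicate block, voom, and leaving out libraries. Tables and figures used Python 3.11.15, pandas 2.3.3 and matplotlib 3.10.9.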

Additional observations from a re-analysis of the deposited data

How the results depend on the processing

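Over 15 alternatives, 22 of 35 members kept their sign throughout, and 20 of 452 values of single members changed sign, in 13 members. The cause was not tested. These changes came from leaving out 1 library, 10 of them DSS replicate 3. Leaving out 1 library gave 0 to 1 members passing upward (Reg3b, without DSS replicate 3). It gave 10 to 16 of 35 members with DSS entirely above control libraries, against 6.06% to 22.0% of all genes above 0. Without both libraries numbered 3 there were 18 such members, against 26.0% of genes. Of the 13, the tested members were Elf3 and Krt20. With 1 library left out, Elf3 had log2 differences of −0.0397 to 0.742 (below 0 without DSS replicate 3 or control replicate 2). Krt20 had −0.346 to 0.902 (below 0 without DSS replicate 3 or control replicate 1). The other 11 were not tested. Without DSS replicate 3, Cdh1, Ceacam1, Cdx2, Clca1, Fcgbp, Car4, Vil1 and Aqp8 were below 0 (lowest Vil1, −0.257, and Aqp8, −0.174). Fabp2 (−0.0720) and Reg3g (−0.118) were below 0 without DSS replicate 2, and Tff3 was above 0 (0.171) without DSS replicate 1. Further changes came without control replicate 1 (Cdx2 and Reg3g) and without control replicate 2 (Car4, Reg3g and Tff3). With 1 library left out, the median was 0.291 to 0.785 over all members and 0.399 to 0.785 for pan-epithelial members. It was −0.0455 to 0.778 for goblet, 0.130 to 0.774 for absorptive and 1.14 to 1.35 for inducible members. With a pseudocount of 0.1 it was 1.20 over all members, 1.17 for pan-epithelial, 1.23 for goblet, 0.824 for absorptive and 2.65 for inducible members. With a pseudocount of 5 it was 0.153 over all members, 0.235 for pan-epithelial, 0.153 for goblet, 0.147 for absorptive and 0.469 for inducible members. Genes of the whole table passing upward (9) numbered 4 with no filter, 5 after median-of-ratios scaling, 3 with voom and 4 to 144 without 1 library. Those passing downward (18) numbered 8 at equal totals, 4 after median-of-ratios scaling, 10 with the replicate block, 1 without both libraries numbered 3 and 1 to 291 without 1 library. The highest of these counts, 144 and 291, were without DSS replicate 1, and the lowest, 4 and 1, were without a control library. The replicate block changed no member's call. Members with fewer than about 10 fragments in a library are limited by counting error. The settings for the counts of members without overlap or with a positive difference, and for the bound of Reg3b, were chosen after seeing the data.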

Other observations

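Enteroendocrine genes, which mark the hormone-secreting cells of the epithelium, summed to 12.9, 10.002 and 25.4 FPKM in DSS replicates 1, 2 and 3, and to 1.76, 1.51 and 13.1 FPKM in control replicates 1, 2 and 3. The cholecystokinin gene Cck had 6.59, 1.76 and 4.09 FPKM in DSS libraries and 0, 0 and 0.683 FPKM in control libraries, with no overlap (limma adjusted p = 0.180). Of the 3 tested genes of this list, 0 passed. Paneth cell genes, which mark a cell type of the small intestine, summed to 4.14, 8.21 and 4.40 FPKM in DSS libraries and to 5.42, 4.20 and 5.47 FPKM in control libraries, which overlap.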
